A study of Gallus gallus with 10 samples.

Results

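The egg white antimicrobial and gel genes LYZ, AvBD11, VMO1 and MUC6 were followed in RNA from the magnum of broiler breeder hens (Gallus gallus) at peak and at declining lay. The members were taken by gene name from a raw count table of 29558 Ensembl genes, in which each of the 4 names had 1 row. Of the 4, LYZ, AvBD11 and MUC6 had enough counts for the test across all genes and VMO1 did not. The magnum is the oviduct segment that secretes egg white around the yolk. One group was 5 hens of 35 weeks, labelled Young, and the other was 5 hens of 50 weeks, labelled Aged. No treatment or genotype other than age is given in the labels, each library was from another bird, and all hens had an egg in the magnum when whole tissue was taken.

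Egg white protects the embryo both chemically and mechanically. LYZ encodes lysozyme, an enzyme that cleaves the peptidoglycan of bacterial cell walls. AvBD11 encodes an avian beta-defensin, a small cationic antimicrobial protein, and RefSeq also lists it under the name VMO-II, for the outer layer of the vitelline membrane that surrounds the yolk. VMO1 encodes another protein of that outer layer. MUC6 encodes a gel-forming mucin, and RefSeq gives MUC6 as another name of OVOB, the beta subunit of ovomucin, the glycoprotein that makes thick egg white a gel. Its partner, the alpha subunit, is encoded by OVOA.

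Libraries held between 188271 and 258195 counts, so levels rest on few reads, and a count of 0 allows 3 counts, or 11.6 to 15.9 CPM (counts scaled to a common library size) by library totals. OVAL, the ovalbumin gene, took up 2.69% of the summed counts in younger hens and 2.12% in older ones. Mean levels of VPS13A (15131 and 23404 CPM) and RABEPK (10940 and 6444 CPM) were above those of LYZ (1229 and 743 CPM). No source used here gives the strand setting of the counting. How far reads of the opposite strand entered the rows of the 4 members, OVAL and OVOA was thus not tested. Their levels and ratios below carry that limit. The titles also name the shell gland, a later oviduct segment, whereas the tissue label is the magnum. The magnum genes OVAL, OVALX, OVALY, TF, SPINK7 and AVD summed to 39047 to 51890 CPM at 35 weeks and 25629 to 38786 CPM at 50 weeks. These sums did not overlap between the ages, but the highest older and the lowest younger hen were close. Of 8 genes of a shell gland, isthmus and infundibulum list in the table, 3 had 0 counts in all 10 libraries, among them SPP1 and CALB1. Of the 5 with counts, BPIFB3 had 1 to 9 counts per library at 35 weeks and 6 to 14 at 50 weeks. The list summed to 5.34 to 74.3 CPM at 35 weeks and 56.1 to 113 CPM at 50 weeks. A set of 3 libraries stood apart in 1 fibroblast marker, COL6A2, and the other markers of that list did not set them apart. Fold changes of the members and of OVOA and AP2A2 below are given with and without this set. The 3 were replicates 1 and 2 of the younger hens and replicate 4 of the older. COL6A2 had 97, 124 and 226 counts in these and 1 to 38 in the other libraries. The 8 markers, mostly COL6A2, summed to 461, 560 and 898 CPM in the 3. Over all 10 libraries that sum ranged from 31.9 to 560 CPM at 35 weeks and from 34.5 to 898 CPM at 50 weeks, and its part in the results below was not tested.

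The mean level of LYZ was 1229 ± 346 CPM (SD, n = 5) in the younger hens and 743 ± 278 CPM in the older. Replicates 1 to 5 at 35 weeks had 1737, 1368, 1207, 875 and 956 CPM. At 50 weeks they had 1230, 615, 687, 646 and 535 CPM. In 4 of 5 hens at 50 weeks LYZ was below the lowest hen at 35 weeks, and replicate 1 at 50 weeks lay inside the range of the younger hens, so the ages overlapped. These levels rest on 124 to 384 counts per library. The spread between hens of 1 age, a coefficient of variation of 28.1% at 35 weeks and 37.4% at 50 weeks, was wider than the 6.24% and 7.71% that counting alone gives.

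The log2 fold change of LYZ (50 against 35 weeks) was −0.73 (SE 0.24, 95% interval −1.25 to −0.21), which is a level 1.66-fold higher at 35 weeks. Under edgeR's quasi-likelihood test, adjusted by Benjamini and Hochberg's method over 1773 genes, LYZ did not pass the threshold of 0.05 (adjusted p = 0.28, unadjusted p = 0.00894). In that comparison 0.0564% of tested genes were called, and the ages did not overlap in 1.64%. Without the 3 libraries set apart, which include the hens with the highest and second highest LYZ at 35 weeks, the log2 fold change was −0.40 (edgeR adjusted p = 0.556). Without replicate 1 at 50 weeks it was −0.97 (edgeR adjusted p = 0.0953). The call also depended on the filter on low counts. With a filter keeping genes with a CPM of 1 in 5 or more libraries, the edgeR adjusted p was 0.0194. Over 15792 genes with no filter it was 0.0542, still above the threshold. With no filter it was 0.00243 without replicate 1 at 50 weeks and 0.513 without replicate 1 at 35 weeks. The sum of the 6 magnum genes was also lower in every older hen (at most 38786 CPM) than in every younger one (at least 39047 CPM). Its part in the LYZ and AvBD11 values was not tested. In bulk tissue a smaller share of secreting cells and less RNA per cell cannot be told apart.

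LYZ was also read against ovalbumin within each library, which does not depend on how libraries are scaled. There were 4.46 ± 0.798 LYZ counts per 100 counts of OVAL (SD, n = 5) at 35 weeks, with a range of 3.50 to 5.27. At 50 weeks there were 3.47 ± 0.706, with a range of 2.58 to 4.56. These ratios overlapped between the ages, and replicate 1 at 50 weeks was again the high one. The level of OVAL itself was 27200.0 ± 3371 CPM in the younger and 20994 ± 3509 CPM in the older hens (log2 fold change −0.37, SE 0.15, edgeR adjusted p = 0.382).

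Among 1270 tested genes with a symbol, the 3 whose log2 CPM was most like that of LYZ over the 10 libraries were egg white genes. They were OVAL, the gene of ovalbumin (Pearson r = 0.93), SPINK7, the gene of the protease inhibitor ovomucoid (r = 0.92), and ORM1, the gene of ovoglycoprotein (r = 0.91). These r values were the highest of 1270 and are given with no p, and the points share library depth and composition. LYZ with OVAL is also 1 of the 7 relations over which p was adjusted below. Its p entered that adjustment but is not read as a test, since OVAL was the highest of 1270. Keeping so small a p among the 7 can lower the adjusted p of the other relations, which were not adjusted again without it. The Spearman rho of LYZ with OVAL was 0.87. Left without replicate 1 at 35 weeks and replicate 2 at 50 weeks, the 2 hens farthest from the median of OVAL, r was 0.91. It was 0.87 for the deviations of each hen from the mean of its age.

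LYZ lies on chromosome 1 at 35550009 to 35553725 (GRCg7b). RefSeq places the whole gene inside the span of the long noncoding RNA gene LOC107052751 and the start or end of YEATS4 163 bases away. No row of the count table was matched to LOC107052751, while YEATS4 had 0 to 2 counts per library. Since no source used here says whether reads were counted by strand, the share of LYZ counts that could come from an overlapping RNA was not tested. LYZ is also made by phagocytes. Of 10 macrophage and dendritic cell markers in the table, 5 had 0 counts in every library, among them C1QA, C1QB, C1QC and MARCO. The other 5 included CSF1R, with 6 to 11 counts at 35 weeks and 10 to 18 at 50 weeks (log2 fold change 0.63, edgeR unadjusted p = 0.0629). The list summed to 40.7 to 69.4 CPM at 35 weeks and 46.3 to 78.4 CPM at 50 weeks. Of 10 heterophil markers 7 had 0 counts in every library, and the sum of 393 to 771 and 416 to 777 CPM was nearly all LECT2. Their part in the LYZ values was not tested.

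**Figure D1:**
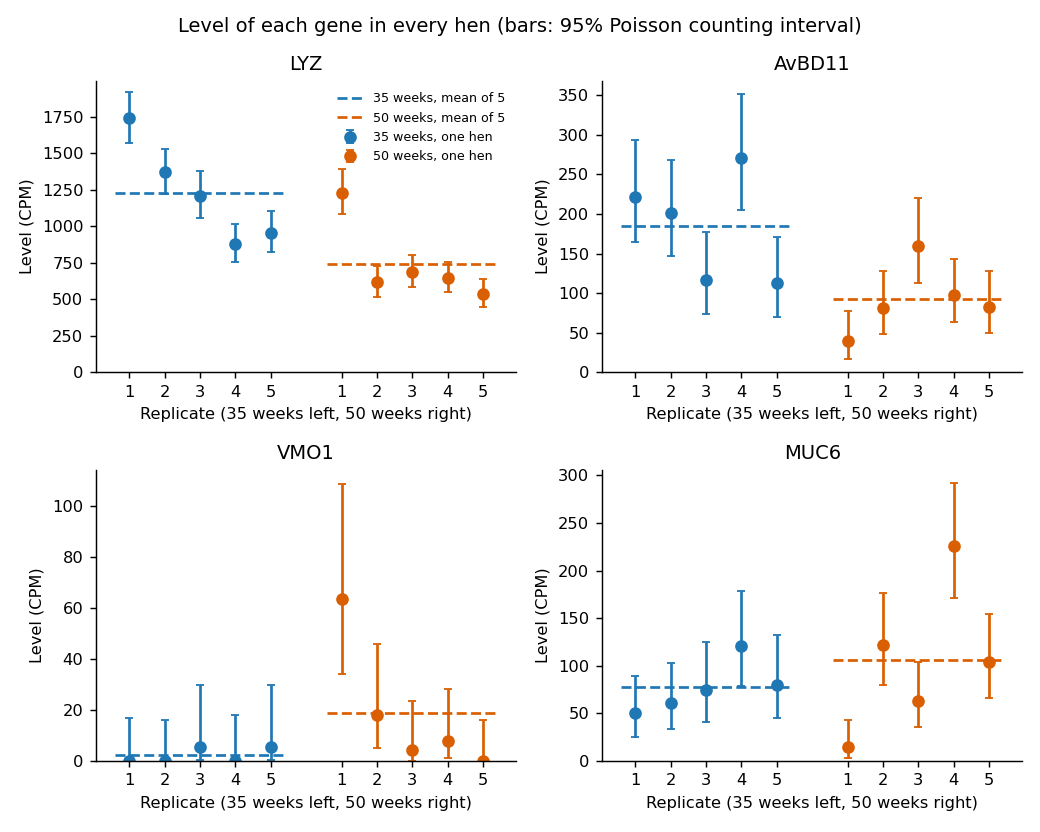
Level of LYZ, AvBD11, VMO1 and MUC6 in CPM (y axis, from 0) in each of 10 hens by replicate number, 35 weeks on the left in blue and 50 weeks on the right in orange, with 95% Poisson counting intervals as bars and the mean of 5 hens as a dashed line. Replicate 1 at 50 weeks is the highest hen of its age for LYZ (1230 CPM) and VMO1 (63.7 CPM) and the lowest for AvBD11 (39.2 CPM) and MUC6 (14.7 CPM).

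AvBD11 had a mean level of 185 ± 68.7 CPM (SD, n = 5) in the younger hens and 91.9 ± 43.8 CPM in the older. The counts of replicates 1 to 5 were 49, 46, 22, 56 and 21 at 35 weeks, or 222, 201, 117, 271 and 112 CPM. At 50 weeks they were 8, 18, 38, 25 and 19, or 39.2, 80.8, 160, 97.2 and 82.0 CPM. Among the younger hens replicates 1, 2 and 4 had 201 to 271 CPM and replicates 3 and 5 had 112 to 117 CPM, and replicate 3 at 50 weeks lay between these, so the ages overlapped. In 4 of 5 hens at 50 weeks AvBD11 was below the lowest hen at 35 weeks.

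The log2 fold change of AvBD11 was −0.998 (SE 0.34, 95% interval −1.72 to −0.27), a level 2.00-fold higher at 35 weeks, and edgeR's quasi-likelihood test did not call it (adjusted p = 0.292, unadjusted p = 0.0103). With no filter on low counts the edgeR adjusted p was 0.149. It was 0.035 in that fit without replicate 3 at 50 weeks, the highest older hen. Without replicate 5 at 35 weeks, the lowest younger hen, it was 0.0397. Leaving out replicate 4 at 35 weeks gave 0.643 there, and leaving out replicate 1 at 50 weeks gave 0.556. With the filter and without the 3 libraries set apart, the log2 fold change was −0.86 (edgeR adjusted p = 0.406). In the main fit, over 1773 genes, 6.03% had an unadjusted edgeR p under 0.05 with lower values at 50 weeks. In 1.52% of the 1773 genes the log2 fold change was as low as that of AvBD11 or lower. Counting error alone gives a coefficient of variation of 16.1% at 35 weeks and 21.5% at 50 weeks, against 37.2% and 47.7% between hens. The authors' deposited table lists AvBD11 with a log2 fold change of 0.99 (SE 0.37) in the direction of 35 against 50 weeks and an adjusted p of 0.293. LYZ and MUC6 are not among the 203 genes of the authors' deposited table, whose smallest absolute log2 fold change is 0.96.

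The ratio of AvBD11 to LYZ varied between hens. Per 100 counts of LYZ there were 9.69 to 30.9 counts of AvBD11 at 35 weeks and 3.19 to 23.3 at 50 weeks. The highest ratio was in replicate 4 at 35 weeks, the hen with the lowest LYZ of its age and the highest AvBD11. The lowest was in replicate 1 at 50 weeks. Of 7 relations over which p was adjusted, AvBD11 and LYZ across 10 hens had a Pearson r of 0.30 (permutation p = 0.405, adjusted p = 0.456) and a Spearman rho of 0.44 (permutation p = 0.203, adjusted p = 0.285), and r was −0.32 for deviations from the age means. Without the 2 hens farthest from the median of LYZ, r was −0.0049. AvBD11 and OVAL had r = 0.32 (permutation p = 0.373, adjusted p = 0.456) and rho = 0.41 (permutation p = 0.246, adjusted p = 0.287), with −0.35 for deviations from the age means and −0.02 without the 2 hens farthest from the median of OVAL.

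The tested genes with a symbol most like AvBD11 were UPF3B, a factor of nonsense-mediated mRNA decay (r = 0.83), CUL4B, a ubiquitin ligase scaffold (r = 0.82), and SLC2A1, a glucose transporter (r = 0.80), over 10 libraries and with no p. The r values of AvBD11 were thus lower than those of LYZ, and no egg white gene was among its 3. AvBD11 had 8 to 56 counts per library and LYZ 124 to 384, and the part of counting error in this difference was not tested.

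AvBD11 lies on chromosome 3 at 107206496 to 107209784 (GRCg7b), in a cluster of beta-defensin genes. AvBD13, 7916 bases away, had 0 counts in every library. Of 15 other beta-defensin and cathelicidin genes in the table, which kill microbes in leukocytes and epithelia, 12 had 0 counts in all libraries and the 15 together had 15 counts in the 10 libraries. AvBD10 held 12 of these, with 0 to 4 counts per library. None of the 15 had enough counts to be tested, and AvBD11 was the 1 gene of this family that did.

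VMO1 was close to the detection limit. It had 0, 0, 1, 0 and 1 counts in replicates 1 to 5 at 35 weeks. At 50 weeks it had 13, 4, 1, 2 and 0 counts. All younger hens had at most 1 count, and replicate 1 at 50 weeks held 13 of the 20 counts of the older hens. In CPM the means were 2.13 ± 2.92 (SD, n = 5) and 18.7 ± 26.0, and the 13 counts corresponded to 63.7 CPM with a 95% Poisson interval of 33.9 to 109 CPM.

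VMO1 did not pass the filter on low counts. In a fit without that filter, which tested 15792 genes, its log2 fold change was 2.89 (SE 0.89), edgeR's adjusted p was 0.219 and the unadjusted p was 0.00112. In that fit 0.228% of genes were called and 2.68% had an unadjusted p under 0.05 with higher values at 50 weeks. A fitted fold change of a gene with so few counts depends on the small count that the fit adds. As a ratio of summed counts, 20 against 2, the level was 9.23-fold higher at 50 weeks with a 95% exact interval of 2.24 to 81.5, which covers counting error only. An exact two-sided permutation test of mean CPM over 252 assignments of hens to ages gave a difference of 16.6 CPM with p = 0.127, where 0.00794 is the smallest p the design allows.

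Without replicate 1 at 50 weeks, VMO1 had 7 against 2 counts. The ratio was then 3.94 (95% exact interval 0.751 to 38.9), the log2 fold change 1.70 (edgeR adjusted p = 0.605) and the difference of means 5.36 CPM (p = 0.23 by exact permutation of 126 assignments). When replicate 5 of the older hens, which had no count, was left out, the difference was 21.3 CPM (exact permutation p = 0.0238). Without the 3 libraries set apart, the log2 fold change of VMO1 in the fit with no filter was 2.37 (edgeR adjusted p = 0.685). The authors' deposited table lists VMO1 with a log2 fold change of −3.22 (SE 1.37) for 35 against 50 weeks and no adjusted p. VMO1 lies on chromosome 1 at 180604835 to 180608823 (GRCg7b), with no other protein-coding gene within 10 kb. In replicate 1 at 50 weeks the 8 genes of the shell gland, isthmus and infundibulum list summed to 113 CPM, the highest of the 10 libraries, and that list was at 5.34 to 74.3 CPM in the younger and 56.1 to 113 CPM in the older hens. In replicate 1, 13 of these counts were of BPIFB3. BPIFB3 had 1 to 9 counts at 35 weeks and 6 to 14 at 50 weeks, with 14 in replicate 4 at 50 weeks, where VMO1 had 2. The part of other oviduct segments in the VMO1 values was not tested.

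The level of MUC6 was 77.3 ± 27.1 CPM (SD, n = 5) in the younger hens and 106 ± 78.6 CPM in the older. Replicates 1 to 5 at 35 weeks had 11, 14, 14, 25 and 15 counts, or 49.8, 61.2, 74.4, 121 and 80.1 CPM. At 50 weeks they had 3, 27, 15, 58 and 24 counts, or 14.7, 121, 63.2, 226 and 104 CPM. The older hens spanned both the lowest and the highest value of the whole set and enclosed the younger ones. The highest hen was 15.3-fold above the lowest at 50 weeks and 2.43-fold at 35 weeks.

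The log2 fold change of MUC6 was 0.47 (SE 0.50, 95% interval −0.60 to 1.55, edgeR adjusted p = 0.813), and 5.30% of tested genes had an SE as large or larger. The interval holds changes of either sign. Replicate 4 at 50 weeks decided the value: without it the log2 fold change was −0.00077, and without the 3 libraries set apart, of which it is one, −0.26 (edgeR adjusted p = 0.882). Without replicate 1 at 50 weeks, the lowest hen, it was 0.75 (edgeR adjusted p = 0.474).

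MUC6 moved from hen to hen with AP2A2, a subunit of the AP-2 adaptor of clathrin-coated vesicles and the gene next to it. RefSeq places MUC6 on chromosome 5 at 14660533 to 14697460 (GRCg7b, under OVOB) and AP2A2 at 14697091 to 14740028, so that their spans share 370 bases. Both the overlap and the name of ovomucin's beta subunit rest on the match of MUC6 to OVOB by synonym, since coordinates of the counted gene model were not used here. AP2A2 had 1238, 2050, 1885, 2661 and 1186 counts at 35 weeks and 978, 2734, 2370, 6174 and 2606 at 50 weeks. Replicate 4 at 50 weeks was thus the highest and replicate 1 at 50 weeks the lowest of all 10 hens for both genes. There were 9.04 ± 2.27 MUC6 counts per 1000 counts of AP2A2 (SD, n = 5) at 35 weeks and 7.58 ± 2.88 at 50 weeks. Replicate 1 at 50 weeks, with 3.07 on 3 counts of MUC6, was the lowest ratio, and the other 9 hens lay between 6.33 and 12.6.

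Across 10 hens MUC6 and AP2A2 had a Pearson r of 0.89 (permutation p = 0.00103, adjusted p = 0.0036) and a Spearman rho of 0.92 (permutation p = 0.00067, adjusted p = 0.00469). Without replicates 1 and 4 at 50 weeks, the 2 hens farthest from the median of AP2A2, r was 0.75, and it was 0.92 for deviations from the age means. For AP2A2 the levels were 8757 ± 2930 CPM in the younger and 12464 ± 7068 CPM in the older hens (log2 fold change 0.51, SE 0.37, edgeR adjusted p = 0.708). Its log2 fold change was −0.015 without the 3 libraries set apart (edgeR adjusted p = 0.984). Without replicate 4 at 50 weeks alone it was 0.14 (edgeR adjusted p = 0.900). MUC6 averaged 77.3 CPM in the younger and 106 CPM in the older hens, far below AP2A2. Whether counts given to MUC6 come from AP2A2 RNA, or counts given to AP2A2 from MUC6 RNA, was not tested. The table has 1 value per gene, and no source used here gives the strand setting. How fully the MUC6 row measures the beta subunit of ovomucin was thus not tested. The comparisons of MUC6 with OVOA, LYZ and other genes below carry that limit.

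**Figure D2:**
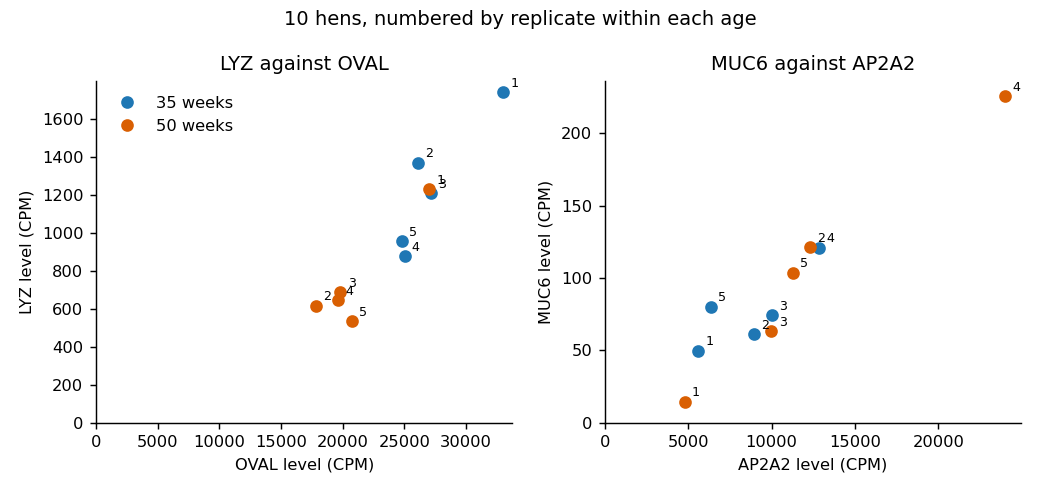
Level of LYZ against OVAL (left) and of MUC6 against AP2A2 (right), in CPM on linear axes from 0, for 10 hens numbered by replicate, 35 weeks in blue and 50 weeks in orange. Replicate 1 at 50 weeks lies among the younger hens for LYZ and OVAL, and replicate 4 at 50 weeks lies far above the others for MUC6 (226 CPM) and AP2A2.

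AP2A2 was not the closest gene. Of the 1270 tested genes with a symbol it was the fifth by r, and the 3 most like MUC6 were TTLL2, a tubulin ligase family member (r = 0.97), PPP1R26, a regulatory subunit of protein phosphatase 1 (r = 0.93), and BSX, a homeobox gene (r = 0.93). Each had its highest count in replicate 4 and its lowest in replicate 1 at 50 weeks. TTLL2 had 123 and 16 counts there against 38 to 66 in the other 8 libraries, PPP1R26 had 140 and 39 against 57 to 101, and BSX had 50 and 13 against 20 to 36. MUC6 had its own extremes in the same hens. Genes picked for the highest r with MUC6 are likely to share these, so the sharing is not a separate result. The r values are given with no p.

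The alpha subunit of ovomucin had another pattern. The level of OVOA was 1190.0 ± 260 CPM (SD, n = 5) in the younger hens and 785 ± 174 CPM in the older (log2 fold change −0.60, SE 0.19, edgeR adjusted p = 0.267). Without the 3 libraries set apart its log2 fold change was −0.75 (edgeR adjusted p = 0.0655). With no filter on low counts as well, read after the data were seen, it was −0.77 and passed the threshold (edgeR adjusted p = 0.00473). Per 100 counts of OVOA there were 4.10 to 9.54 counts of MUC6 at 35 weeks and 1.46 to 26.0 at 50 weeks, and in 4 of 5 older hens the ratio was above every younger hen. Replicate 1 at 50 weeks was the exception.

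By rank, MUC6 and LYZ ran in opposite directions across the 10 hens. Their Spearman rho was −0.79 (permutation p = 0.00892, adjusted p = 0.0208) and their Pearson r was −0.63 (permutation p = 0.0473, adjusted p = 0.11), so that the linear relation did not pass adjustment over the 7 relations. Without replicate 1 at 35 weeks and replicate 5 at 50 weeks, the 2 hens farthest from the median of LYZ, r was −0.65. It was −0.81 for deviations from the age means. Replicate 1 at 50 weeks, with 3 counts of MUC6, stayed in all of these values and in those for OVAL that follow. How far the relations rest on that hen was thus not tested. MUC6 and OVAL had rho = −0.75 (permutation p = 0.0182, adjusted p = 0.0318) and r = −0.58 (permutation p = 0.0722, adjusted p = 0.126), with r = −0.57 without the 2 hens farthest from the median of OVAL and −0.78 for deviations from the age means. MUC6 and AvBD11 had r = 0.27 (permutation p = 0.456, adjusted p = 0.456) and rho = −0.15 (permutation p = 0.684, adjusted p = 0.684), with 0.43 for deviations from the age means. Without replicate 4 at 35 weeks and replicate 1 at 50 weeks that r was −0.76, so its sign rests on those hens. All values here are shares of a library, and the part of composition in these relations was not tested.

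Replicate 1 at 50 weeks was the highest or lowest hen of its age for all 4 genes. Against the median of the other 4 hens of 50 weeks, replicate 1 had a log2 CPM higher by 0.95 for LYZ and by 2.28 for VMO1. Its log2 CPM differed from that median by −1.03 for AvBD11 and by −2.35 for MUC6. Its gap to the nearest hen was 0.782 of the range at 50 weeks for LYZ and 0.718 for VMO1, past Dixon's limit of 0.71. For AvBD11, on 8 counts, the gap was 0.344 and for MUC6, on 3 counts, 0.23, both under that limit and under the gaps of replicate 3 for AvBD11 (0.52) and replicate 4 for MUC6 (0.495). Its magnum gene sum of 38786 CPM was the highest of the older hens and below the lowest younger hen, and its fibroblast sum of 53.9 CPM was far from those of the 3 libraries set apart. Among younger hens replicate 1 was the highest for LYZ and the lowest for MUC6, and replicate 4 was the reverse, the lowest for LYZ and the highest for AvBD11 and MUC6. Replicate 4 at 35 weeks also had 0 counts of VMO1, the lowest of its age in a tie with replicates 1 and 2. It too was thus at an extreme of its age for all 4 genes.

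**Figure D3:**
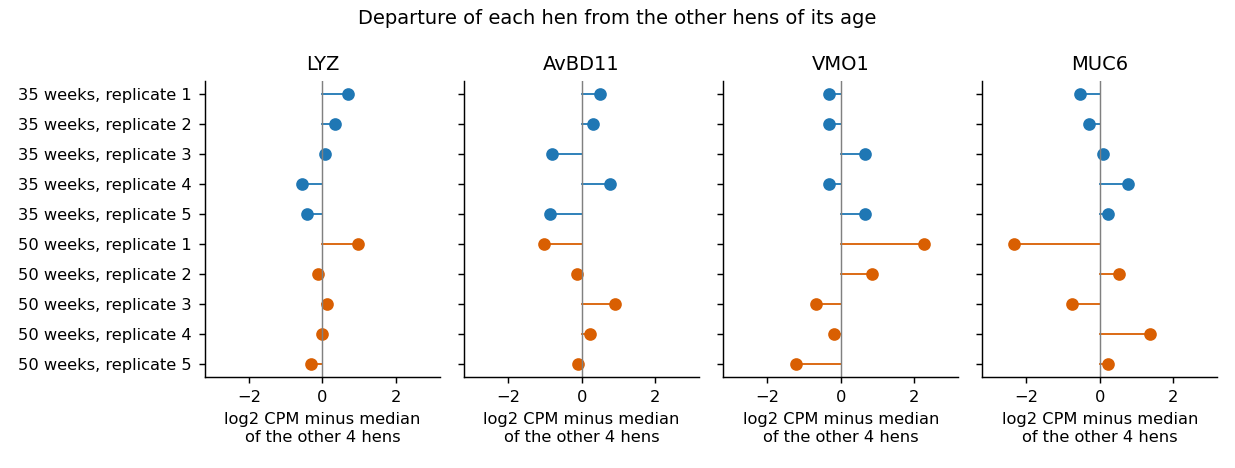
Difference of each hen's log2 CPM (prior count of 2) from the median of the other 4 hens of its age (x axis) for LYZ, AvBD11, VMO1 and MUC6, with 35 weeks in blue and 50 weeks in orange. Replicate 1 at 50 weeks stands at 0.95, −1.03, 2.28 and −2.35; the differences of VMO1 at 35 weeks are between 0 and 1 counts.

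Genes of related function were counted in lists drawn up by function, with earlier results of these data known. Of 8 tested genes of egg white antimicrobial and protective proteins other than the 4, 6 had negative and 2 positive log2 fold changes, and none was called. The median was −0.64, against 0.0060 over all 1773 tested genes, of which 873 were negative. By p the first were TF, the gene of the iron-binding protein ovotransferrin, with 6967 ± 1118 and 3928 ± 762 CPM (log2 fold change −0.83, edgeR adjusted p = 0.0984), and SPINK7, with 6093 ± 1440 and 3546 ± 815 CPM (log2 fold change −0.78, edgeR adjusted p = 0.175). At an unadjusted p under 0.05 there were 4 of the 8, all with lower values at 50 weeks, against 6.03% of all tested genes. In the wider list of 15 tested egg white genes, which holds LYZ, AvBD11 and MUC6, 12 had negative log2 fold changes, the median was −0.66 and none was called. The smallest p in it was that of OVALY, a relative of ovalbumin, with 2437 ± 208 and 1450 ± 256 CPM (log2 fold change −0.75, edgeR adjusted p = 0.0984).

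Apart from OVOA and VWF, no gene of the mucin list had more than 34 counts in the 10 libraries together. Of 6 gel-forming, surface or mucin-associated genes in the table besides MUC6, 3 had 0 counts in all libraries, and the tested 2 were OVOA and VWF, the gene of von Willebrand factor (log2 fold change −0.10, edgeR adjusted p = 0.913). MUC2, an intestinal gel-forming mucin, had 0 to 6 counts. Of 38 genes of mucin glycosylation, disulfide formation and packing in the table, 3 had enough counts to be tested and none was called. PDIA6, a disulfide isomerase, had 780 ± 194 and 521 ± 241 CPM (log2 fold change −0.59, edgeR adjusted p = 0.494). C1GALT1C1, the chaperone of the enzyme that extends mucin O-glycans, had 734 ± 69.8 and 847 ± 80.0 CPM (0.21, edgeR adjusted p = 0.634).

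**Figure D4:**
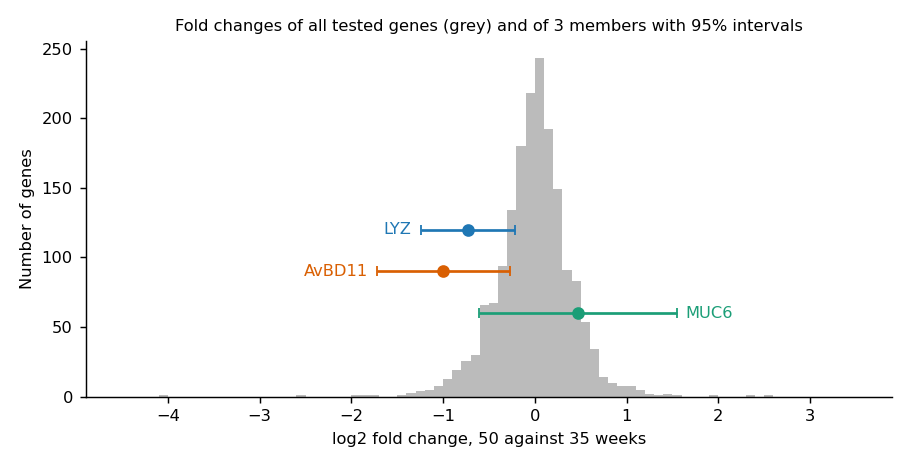
Histogram of the log2 fold changes (50 against 35 weeks, x axis) of 1773 tested genes, with the values and 95% intervals of LYZ, AvBD11 and MUC6 drawn at arbitrary heights. LYZ (−0.73) and AvBD11 (−0.998) lie left of 0 with intervals that leave it out, and the interval of MUC6 spans 0.

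**Figure D5:**
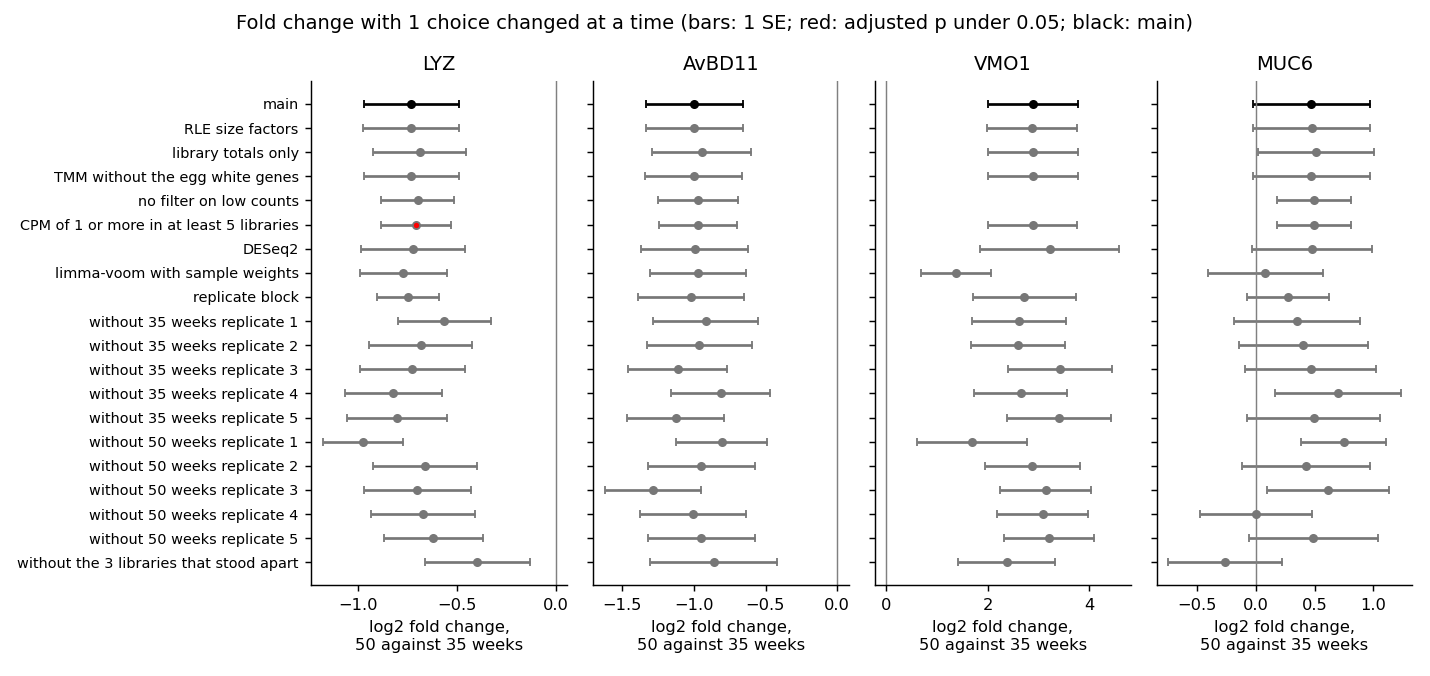
Log2 fold change (50 against 35 weeks, x axis) with bars of 1 SE for LYZ, AvBD11, VMO1 and MUC6 under the main setting (black) and alternatives that change 1 choice (grey), with a red point where the adjusted p was under 0.05 (LYZ under 1 filter on CPM), VMO1 being fitted with no filter on low counts except in that row. LYZ and AvBD11 stay negative in all settings drawn and VMO1 stays positive, while MUC6 is −0.00077 without replicate 4 at 50 weeks and −0.26 without the 3 libraries set apart.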

How the data were processed

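RNA was taken from whole magnum of 10 hens with TRIzol and made into libraries with a directional kit, per the labels' protocols. Tools named in the submitters' processing notes are Trimmomatic, HISAT2, Cufflinks and DESeq2, and the build is GRCg7b. No source used here gives the read counter or its strand setting. Raw whole-number counts per gene, with no normalization, were deposited by the authors. The authors' deposited table of their own comparison gives log2 fold changes, p-values, a Wald score and mean normalised counts (a signal), per the file headers. Its 44 genes also tested here all had the opposite sign to 50 against 35 weeks, so its direction was read as 35 against 50 weeks.

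R 4.3.3 and edgeR 4.0.16 were used to test counts by age alone (TMM, filterByExpr at a minimum count of 10, robust glmQLFit, two-sided glmQLFTest), over all genes at an adjusted p under 0.05. CPM uses library totals times TMM factors. The filter kept 3 of the 4 members, and VMO1 was read from a fit without it. Correlations use log2 CPM (prior count 2) and 100000 permutations. The pipeline was tested on simulated data. Each library, from another bird, is 1 replicate, and libraries of 1 age differed by at least 3.27 chi-square per degree of freedom. The p-values of the age comparison set the difference between the ages against the spread between these hens. The same replicate numbers mark different birds. RefSeq (GRCg7b) gave positions and neighbours within 10 kb, with no strand.

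The members, lists and alternatives were chosen with earlier results of these data known. The text names the members, the 2 genes of smallest p in each list, the 3 genes most like each tested member, and neighbours. OVAL, BPIFB3, CSF1R, MUC2, AvBD10 and the ovodefensin genes are named beyond that rule, or with their values seen. Alternatives were RLE size factors, library totals, TMM without egg white genes, other filters on low counts, DESeq2 1.42.0, limma 3.58.1 (weighted voom), the replicate number as a block, and leaving out libraries, each but DESeq2 and the other filter also joined with no filter on low counts, a combination planned for VMO1 only. Intervals and floors cover counting error only. Software was matplotlib 3.10.9, scipy 1.17.1, pandas 2.3.3 and numpy 2.4.6 under Python 3.11.15.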

Additional observations from a re-analysis of the deposited data

Results flagged for a closer look

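In 2 of 8 combinations of gene and age, 1 hen stood apart from the other 4 by a gap wider than Dixon's 95% limit (0.71 of the range for 5 hens), and in both it was replicate 1 at 50 weeks. Its LYZ level was 1230 CPM, with a gap of 0.782 of the range to the next hen. Its VMO1 level was 63.7 CPM, on 13 counts, with a gap of 0.718. Chance flags about 1 in 20 such combinations where values are normally distributed. The VMO1 levels at 50 weeks rest on 0 to 13 counts per library, for which that rate need not hold.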

How the results depend on the processing

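With 1 choice changed at a time, LYZ, AvBD11 and VMO1 kept their sign under all 19, 19 and 18 alternatives. LYZ passed the threshold under 1 of them, a filter keeping genes with a CPM of 1 in 5 or more libraries (log2 fold change −0.70, edgeR adjusted p = 0.0194); its adjusted p ranged from 0.0194 to 0.575. AvBD11 passed under none (adjusted p 0.06 to 0.57), nor did VMO1 (0.099 to 0.705) or MUC6 (0.474 to 0.999). DESeq2 gave no adjusted p for VMO1 or MUC6. MUC6 changed sign without the 3 libraries set apart (−0.26) and without replicate 4 at 50 weeks (−0.00077), and the cause was not tested. Leaving out 1 library gave log2 fold changes of −0.97 to −0.56 for LYZ, −1.29 to −0.80 for AvBD11, 1.70 to 3.42 for VMO1 and −0.00077 to 0.75 for MUC6. The VMO1 difference in means was then 5.36 to 21.3 CPM. The log2 fold change of VMO1 was 1.38 by limma with sample weights, and that of MUC6 0.08. In 16 fits, examined for LYZ, AvBD11 and MUC6 after seeing the data, no filter on low counts was joined with 1 more choice. LYZ passed in 5 (edgeR adjusted p 0.00243 to 0.725 over the 16), with −0.72 under the replicate block (adjusted p = 0.0419) and −0.72 with RLE size factors (0.0339), −0.79 and −0.78 without replicate 4 or 5 at 35 weeks (0.0255 and 0.0174) and −0.95 without replicate 1 at 50 weeks (0.00243). AvBD11 passed in 2 (0.035 to 0.643), with −1.11 without replicate 5 at 35 weeks (0.0397) and −1.26 without replicate 3 at 50 weeks (0.035). MUC6 passed in none (0.576 to 0.994) and was −0.27 without the 3 libraries and 0.02 without replicate 4 at 50 weeks. Leaving out 1 library there gave −0.95 to −0.54 for LYZ, −1.26 to −0.78 for AvBD11 and 0.02 to 0.76 for MUC6. Over all genes edgeR called 1. The count was 36 without a filter on low counts, 40 with the CPM filter, 20 by DESeq2, 12 by limma with sample weights and 42 without the 3 libraries. Leaving out 1 library gave 1 to 12, with 12 when replicate 4 of the older hens was left out. It was 2 when replicate 1 or replicate 4 of the younger hens or replicate 5 of the older was left out. Joined with no filter, the count was 40 with the replicate block, 40 with RLE size factors, 35 with library totals, 37 with TMM without egg white genes, 37 by limma and 68 without the 3 libraries. With no filter and replicate 1, 2, 3, 4 or 5 of the younger hens left out it was 28, 23, 40, 38 and 48, and of the older hens 37, 17, 26, 66 and 25. With the replicate number as a block and the filter, edgeR called 2 genes, and LYZ had −0.75 (adjusted p = 0.092). Same-numbered hens did not deviate together (correlations −0.115 to 0.098), 2 of 5 correlated best with the hen of their own number, and the samples share only a number. At this depth VMO1 and most defensin, mucin and glycosylation genes could not be tested.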

Other observations

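Ovodefensins are small egg white antimicrobial proteins of the hen oviduct related to beta-defensins. Their genes were looked at after their values were seen. OvoDA3 had 16, 11, 7, 79 and 19 counts in replicates 1 to 5 at 35 weeks and 4, 12, 12, 2 and 8 at 50 weeks (log2 fold change −1.93, SE 0.70, edgeR adjusted p = 0.348). Its highest hen, replicate 4 at 35 weeks, was also the highest hen for AvBD11. OvoDA1-2 had 8 to 13 counts per library at 35 weeks and 1 to 12 at 50 weeks, OvoDA1 had 1 to 4 and 0 to 2, and OVODB1 had 1 to 2 and 0 to 3, too few to be tested. LYG2, a goose-type lysozyme gene, had 2 counts in the 10 libraries.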
